A study of Homo sapiens with 15 samples.

Results

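Metformin and phenformin were compared directly in A2058 cells, an established human line of malignant melanoma, after 8 hours of treatment. The comparison rested on 6 of the 15 arrays of the series, 3 of cells given metformin at 5 mM and 3 of cells given phenformin at 50 μM, chosen by their labels alone. Replicates 1 and 2 of both drugs shared one slide and replicates 3 shared another, and 3 arrays of cells given water lay on the same slides and entered the fit as the control group. The labels name no genetic change in the cells, and the medium was EMEM with 10% FBS. Metformin was given at 100 times the concentration of phenformin, so that compound and dose cannot be told apart. The labels do not say whether replicates were separate cultures, and p-values therefore measure the spread between these arrays. The remaining arrays (NP at 3 μM and DMSO) lay on other slides and were used here in alternative fits alone. The melanoma label was checked against marker genes. *SOX10* (median 3.38), *S100B* (4.85), *PMEL* (3.86), *AXL* (4.37) and *VIM* (9.13) were above background on all 9 arrays, on a log2 scale on which 0 is the 75th percentile of the array, as were *MITF* (3.47 to 4.13), the regulator of the melanocyte lineage, and the pigment enzyme *DCT* (2.24 to 2.56), whereas the pigment genes *MLANA* (−1.63), *TYRP1* (−2.13) and *TYR* (−3.20) lay under 0.

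Metformin and phenformin are biguanides, drugs that inhibit complex I, the entry point of electrons from NADH into the mitochondrial respiratory chain. Metformin carries small methyl groups and phenformin a phenylethyl group, which makes phenformin the more lipophilic. Cells that lack respiratory capacity phosphorylate the translation factor eIF2α, which slows bulk translation and raises translation of ATF4, a transcription factor of genes for amino acid uptake, amino acid synthesis and tRNA charging. Inhibition of respiration also lowers, through the glucose-sensing factor MondoA, transcription of *TXNIP*, whose protein restrains glucose uptake.

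No gene passed the test between the biguanides. Over 26085 features (1 probe for each gene or transcript, flagged well above background in every metformin or every phenformin replicate), limma called 0 at an adjusted p of 0.05 and a 1.5-fold difference, which is 0% of those tested, and the smallest adjusted p was 0.472. At an unadjusted p of 0.05 or less, 649 features (2.49%) were higher and 1610 (6.17%) lower with phenformin. With the 1.5-fold threshold added, the numbers were 21 higher and 591 lower, of which 18 and 287 were not above background on all 6 biguanide arrays. The methods' paired t-test counted 6 higher and 114 lower at the same thresholds, and 0 after Benjamini-Hochberg adjustment. Restricting the features to 24363 above background on all 6 biguanide arrays gave 0 calls, a lowest adjusted p of 0.570 and 2042 features that reached 0.05 before adjustment, 3 of them higher and 335 lower by 1.5-fold. The arrays did bound the differences of well-measured genes. Of 10866 features above background on all 6 arrays with a mean level over 0, the 95% interval of the difference lay within 1.5-fold in either direction for 95.6%, and of all features tested for 71.3%.

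The larger differences were concentrated on dim probes and on replicate pair 1. Probes well above background numbered 44449, 37922 and 31406 on metformin replicates 1, 2 and 3, and 34982, 34605 and 31992 on phenformin replicates 1, 2 and 3. Water replicates 1, 2 and 3 had 45042, 36839 and 32163. Metformin replicate 1 and water replicate 1 thus stood above the other 7 arrays, while the phenformin arrays lay close to each other. Genes that melanoma cells are not known to use showed the same order. Of 374 probes for olfactory receptors, the odorant sensors of the nose, 63.9%, 39.0% and 16.6% were above background on metformin replicates 1, 2 and 3, and 28.3%, 28.6% and 18.4% on phenformin replicates 1, 2 and 3. Water replicates 1, 2 and 3 had 64.4%, 35.3% and 18.7%. The part of this array-wide shift in any single difference was not tested.

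**Figure D1:**
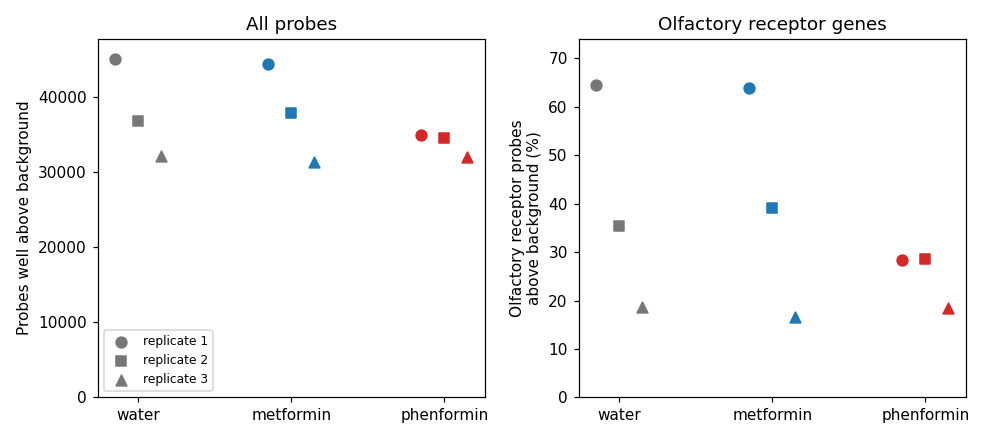
Number of the 58201 probes well above background (left) and percentage of 374 olfactory receptor probes above background (right) on each of the 9 water, metformin and phenformin arrays, 1 point an array, marked by replicate number. Replicate 1 of water and of metformin (45042 and 44449 probes) stood above the other arrays in both panels.

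When features were split by mean level into 10 bins of equal size, the median difference (phenformin minus metformin) in pair 1 was −0.83 in bin 1 (the dimmest), −0.69 in bin 2, −0.48 in bin 3 and 0.12 in bins 8 and 9. In pair 2 the dimmest bin had a median of −0.16, and in pair 3 of 0.01. On replicate 1 the dimmest bin differed from water by 0.09 with metformin and by −0.75 with phenformin, so that the dim probes of pair 1 were high on the metformin and water arrays alike. Pair 1 held 2884 features that were lower with phenformin by 1 or more on the log2 scale and 20 that were higher, against 221 and 32 in pair 2 and 165 and 253 in pair 3. Of the 2884, 2353 (81.6%) lay in the dimmest 3 bins. Their median difference was −1.43 in pair 1, −0.33 in pair 2 and 0.10 in pair 3. All 2884 were flagged above background on metformin replicate 1 and 195 were not on phenformin replicate 1. Filtering on the flag of metformin replicate 1 therefore did not remove them, and 65 tested features in all were not above background on that array. Over probes above background on all 6 biguanide arrays, 1934 features were lower by 1 or more in pair 1. Across features the pair differences correlated by 0.50 (pairs 1 and 2), −0.15 (pairs 1 and 3) and −0.04 (pairs 2 and 3). These are descriptions across genes, which are not independent replicates, and pairs 1 and 2 share a slide.

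**Figure D2:**
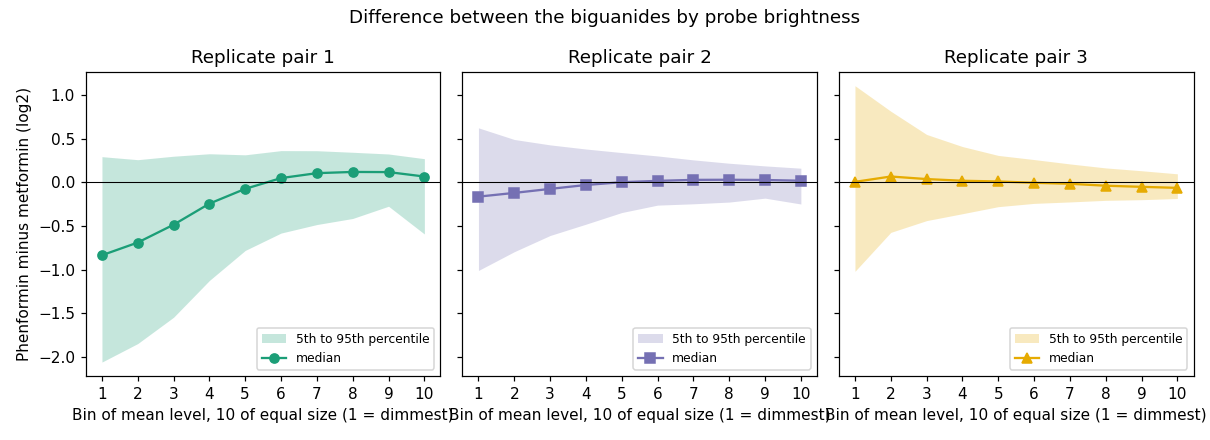
Median (points) and 5th to 95th percentile (band) of the phenformin minus metformin difference (log2) within each of 10 bins of features by mean level, 1 panel for each replicate pair. Dim features lay under 0 in pair 1 (median −0.83 in bin 1) and near 0 in pair 3 (0.01).

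The list of lower features shrank without either biguanide array of replicate number 1. Without metformin replicate 1, 268 features were lower by these thresholds. Of these, 225 were among the original 591, which is 38.1% of the 591 and 84.0% of the 268. Without phenformin replicate 1 the count was 235, so metformin replicate 1 is not singled out. In the fit with array weights, phenformin replicate 1 had the lowest weight (0.224), against 1.146 for metformin replicate 1, and the count was 597. The weights cannot decide it either, because the replicate term of that fit takes up part of a shift that metformin and water replicate 1 share. The count was 917 without metformin replicate 3 and 2067 without phenformin replicate 3. It was 230 without replicate number 1 and 1662 without replicate number 3. Of the 591, 527 lay in the dimmest 3 bins and 18 had a mean level over 0. A fit of the 10866 features with a mean level over 0 alone, which estimates their spread without the dim ones, had 119 lower and 0 higher at the same thresholds. Quantile normalization, which forces the same distribution on every array, turned the split to 296 higher and 192 lower. Under each of these settings 0 features were called.

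Transcripts of the ATF4 pathway had the highest median difference among the gene lists examined, although no member passed the test. The list of 53 ATF4 and integrated stress response targets had 51 members tested, each above background on all 6 arrays, and 44 were higher with phenformin. The median was 0.11, against −0.02 over all features tested and 0.03 over features with a mean level over 0. In all 3 pairs 28 members were higher and 1 (*ULBP1*, a stress ligand for natural killer cells, chosen after its values were seen) was lower, where 12.5% of all features were higher and 17.5% lower in all 3 pairs, and 17% and 11.8% of features with a mean level over 0. At an unadjusted p of 0.05 or less 8 members were higher and 0 lower, against 2.49% and 6.17% of all features and 2.3% higher of those with a mean level over 0. The list's median was 0.19 in pair 1, 0.08 in pair 2 and 0.05 in pair 3, where features with a mean level over 0 had 0.10, 0.03 and −0.04. Against water, which both comparisons share, the list's median was 0.36 with metformin and 0.51 with phenformin. The 8 numbered 2, 2 and 7 when replicate numbers 1, 2 and 3 were left out, and 4 to 8 without any single biguanide array.

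*ASNS* makes asparagine and is a classical ATF4 target. Its level was 4.54, 4.84 and 5.10 on metformin replicates 1, 2 and 3, and 5.12, 5.19 and 5.33 on phenformin replicates 1, 2 and 3. Water replicates read 3.51, 3.74 and 3.92. Every phenformin array was above every metformin array, and both groups were above water. The difference between the drugs was 0.39 ± 0.08 (SE; 95% interval 0.18 to 0.59; adjusted p = 0.531), on top of a metformin minus water difference of 1.10.

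The transsulfuration enzyme *CTH*, which makes cysteine, read 1.28, 1.501 and 1.61 with metformin and 1.74, 1.81 and 1.79 with phenformin, and 0.47, 0.54 and 0.70 with water. Here too the drug groups did not overlap, with a difference of 0.31 ± 0.08 (SE; adjusted p = 0.545). *VEGFA*, which encodes the angiogenic growth factor and is a target of both ATF4 and HIF1, read 2.09, 2.11 and 2.07 with metformin, 2.45, 2.36 and 2.57 with phenformin and 1.57, 1.60 and 1.62 with water. Its difference was 0.37 ± 0.07 (SE; 95% interval 0.19 to 0.55; adjusted p = 0.531), with pairs of 0.36, 0.25 and 0.50. *JDP2*, a bZIP repressor, overlapped between the drugs, with 2.02, 2.27 and 2.54 against 2.47, 2.51 and 2.70 and a difference of 0.28 ± 0.08 (SE; adjusted p = 0.548). The other 4 of the 8 were *DDIT4* (0.19), an inhibitor of mTORC1, *MTHFD2* (0.22) and *PSAT1* (0.23), of mitochondrial folate and serine synthesis, and *VLDLR* (0.23), a lipoprotein receptor. They were chosen after their values were seen.

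ATF4 binds composite elements with C/EBP proteins, and the letters TGATGNAA, searched on both strands, were found in 13 of 66 RefSeq promoter windows of the list (42 members with a window) and in 3.62% of all 35116 windows of the same length, 250 bases before to 50 after a start site in GRCh38.p14. The windows of *CTH* and *VEGFA* did not hold these letters. The matches are printed for the 4 members with a match and the highest differences, chosen after their values were seen, with 10 bases on either side, the match in capitals, read 5′ to 3′ on the strand that carries it. They lie at chr7:97872459-97872486 on the minus strand (*ASNS*), chr14:75427996-75428023 on the plus strand (*JDP2*), chr15:40953252-40953279 on the minus strand (*CHAC1*) and chr19:33374061-33374088 on the plus strand (*CEBPG*, a C/EBP partner of ATF4). A match is a description of letters and not a measured binding site.
ASNS: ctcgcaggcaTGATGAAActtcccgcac
JDP2: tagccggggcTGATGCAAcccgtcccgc
CHAC1: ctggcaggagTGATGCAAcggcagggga
CEBPG: gcgcggcgtcTGATGCAAcctgccggca

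**Figure D3:**
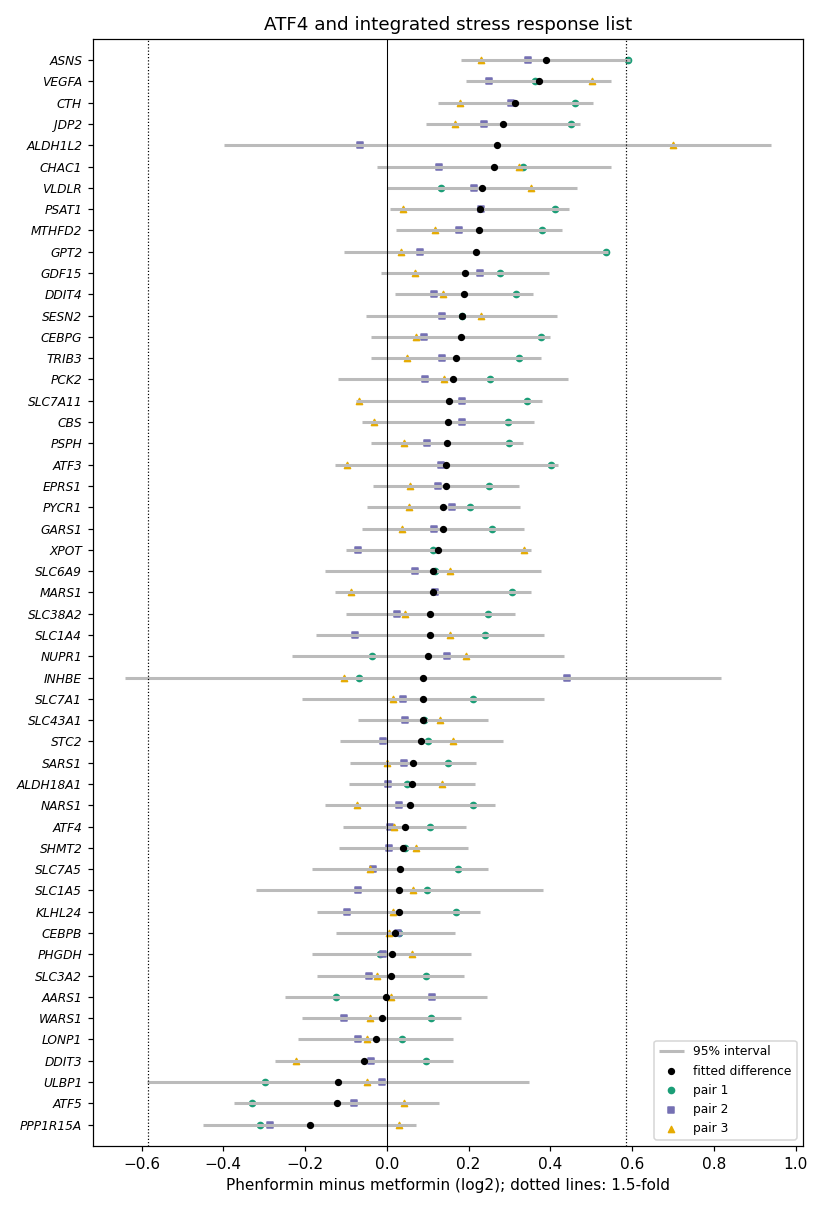
Phenformin minus metformin (log2) for the 51 tested members of the ATF4 and integrated stress response list, with the fitted difference (black), its 95% interval (bar) and the value of each replicate pair (coloured). Members reached from −0.19 (*PPP1R15A*) to 0.39 (*ASNS*), and no fitted difference reached the dotted 1.5-fold lines.

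Other members that are often read as markers of the pathway had differences from −0.06 to 0.26. *ATF4* itself read 7.95, 8.03 and 8.08 with metformin and 8.06, 8.03 and 8.10 with phenformin, a difference of 0.04 with a 95% interval of −0.11 to 0.19. *DDIT3*, the proapoptotic factor CHOP, differed by −0.06 (−0.27 to 0.16). The glutathione-degrading enzyme *CHAC1* read 2.87, 3.07 and 3.27 with metformin and 3.20, 3.19 and 3.60 with phenformin, against 1.03, 0.85 and 0.94 with water. Its groups overlapped and the difference was 0.26 (−0.02 to 0.55), set beside 2.13 for metformin minus water. *TRIB3*, a pseudokinase that restrains ATF4, differed by 0.17 (−0.04 to 0.38), the antioxidant regulator *SESN2* by 0.18 (−0.05 to 0.42) and the secreted stress hormone *GDF15* by 0.19 (−0.01 to 0.40). *NUPR1* differed by 0.10 (−0.23 to 0.43). *INHBE*, an activin subunit at a level of about −3.1, differed by 0.09 with a wide interval of −0.64 to 0.82. These intervals exclude a 1.5-fold difference for *ATF4*, *DDIT3*, *CHAC1*, *TRIB3*, *SESN2*, *GDF15* and *NUPR1*, and not for *INHBE*.

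*TXNIP* and its paralog *ARRDC4*, both driven by the glucose-sensing factor MondoA, were lower than in water with either drug. They differed less between the drugs than from water. *TXNIP* read 1.33, 1.58 and 1.52 with water, −0.23, −0.11 and −0.08 with metformin and 0.01, 0.08 and −0.02 with phenformin. All 6 drug-treated arrays lay under all 3 water arrays, and the drugs differed by 0.16 (95% interval −0.02 to 0.34). The drug groups did not overlap, with phenformin higher in each pair (0.23, 0.19 and 0.06). *ARRDC4* differed by 0.02 (−0.23 to 0.28). In all 3 pairs 12.5% of all features were higher and 17.5% lower (17% and 11.8% of those with a mean level over 0). Of 10 genes of the TXNIP and MondoA list, 1 (*TXNIP*) was higher and 1 lower in all 3 pairs. The lower one, *MLXIPL* (ChREBP, the liver paralog of MondoA), read −3.34, −3.17 and −3.30 with metformin and −3.69, −3.70 and −3.81 with phenformin, a difference of −0.46 ± 0.15 (SE; adjusted p = 0.575) that was −0.09 after quantile normalization.

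Glycolytic and hypoxia genes lay on both sides of 0. Their counts in all 3 pairs are read beside 12.5% of all features higher and 17.5% lower. Of features with a mean level over 0, 17% were higher and 11.8% lower. The glycolytic list was near that 17% on the higher side. *HK2*, the inducible hexokinase that commits glucose to glycolysis, read 2.80, 3.05 and 3.12 with metformin and 3.20, 3.36 and 3.32 with phenformin. The groups did not overlap, and the difference was 0.31 ± 0.07 (SE; 95% interval 0.13 to 0.48; adjusted p = 0.531). Metformin differed from water by −0.03 and phenformin by 0.28. *PFKFB4*, which makes the activator of phosphofructokinase, differed by 0.23 and the glucose transporter *SLC2A3* by 0.20, each higher in all 3 pairs. *PFKL*, the liver phosphofructokinase, differed by −0.66, but its pairs were −1.53, −0.30 and −0.16. Metformin replicate 1 (3.54) stood apart from the other 5 biguanide arrays (1.88 to 2.21), and water replicates 1, 2 and 3 read 2.66, 1.95 and 1.96. The 22 glycolytic enzymes had 4 members higher and 5 lower in all 3 pairs, with a median of 0.02. Of 21 hypoxia targets, 7 were higher and 2 lower in all 3 pairs, with a median of 0.06. *MXI1*, a MYC antagonist among them, differed by 0.24 ± 0.06 (SE; adjusted p = 0.536).

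The serine, glycine and folate one-carbon enzymes had 10 of 20 members higher in all 3 pairs and 1 lower, with a median of 0.08, where 12.5% of all features were higher and 17.5% lower (17% and 11.8% of those with a mean level over 0). At an unadjusted p of 0.05 or less 4 were higher and 0 lower, beside 2.49% and 6.17% of all features. *MTR*, methionine synthase, read 1.54, 1.68 and 2.09 with metformin and 2.06, 2.01 and 2.23 with phenformin, overlapping between the drugs, with a difference of 0.33 ± 0.09 (SE; adjusted p = 0.545). The other 3, singled out after their values were seen, were *PSAT1* (0.23) and *MTHFD2* (0.22), also on the ATF4 list, and the methionine adenosyltransferase *MAT2A* (0.15). Of 19 aminoacyl-tRNA synthetases, 4 were higher and 2 lower in all 3 pairs. *LARS1*, the leucyl enzyme, had the largest difference of that list at 0.25.

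Genes of the drugs' target were close to level, and the other lists of this paragraph had medians from −0.05 to 0.07. The counts in all 3 pairs are read beside 12.5% of all features higher and 17.5% lower, and 17% and 11.8% of those with a mean level over 0. The 50 complex I subunits and assembly factors ranged from −0.15 to 0.12 around a median of 0.01, and the interval of each of the 50 lay within 1.5-fold. The same held for the 39 subunits of complexes II to V (−0.08 to 0.08). Of 23 ER chaperones and ERAD genes 11 were higher and 1 lower in all 3 pairs, with a median of 0.07, and *HSPA5*, the chaperone BiP, differed by 0.18 (−0.05 to 0.40). The 25 NRF2 antioxidant targets had 2 higher and 7 lower in all 3 pairs and a median of −0.01. *OSGIN1* differed by −0.24, and *GCLC*, of glutathione synthesis, by 0.27 with pairs of 0.61, 0.31 and −0.11. Of 42 cytosolic ribosomal proteins 13 were lower and 0 higher in all 3 pairs, but their median of −0.05 was 0.06 after quantile normalization, so no direction can be given. *RPL14* had the largest difference of the list at −0.15. The 28 genes of sterol and fatty acid synthesis had 6 higher and 1 lower in all 3 pairs and a median of 0.07.

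Carriers that move biguanides across membranes were mostly dim or not tested. Of 12 carriers 6 passed the filter, and their median was −0.05. *ABCG2*, an efflux pump, differed by −0.57, with pairs of −1.17, −0.36 and −0.17. *SLC22A2*, *SLC22A3*, *SLC47A2*, *SLC6A4*, *SLC19A3* and *ABCB1* did not pass the filter or were not on the array.

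Among well-measured genes outside the lists, some parted the drugs in each replicate, and they are named here after their values were seen. *UCN2*, the stress peptide urocortin 2, read 2.43, 2.48 and 2.67 with metformin, 2.89, 2.95 and 3.04 with phenformin and 2.81, 2.87 and 2.93 with water. The metformin arrays lay under both other groups. The difference between the drugs was 0.43 ± 0.06 (SE; 95% interval 0.28 to 0.59; adjusted p = 0.472), with pairs of 0.46, 0.47 and 0.37. *NEAT1*, the noncoding RNA that scaffolds paraspeckles, read 4.05, 3.97 and 3.92 with metformin and 4.62, 4.40 and 4.22 with phenformin, without overlap (difference 0.43 ± 0.10, SE; adjusted p = 0.531). Water read 4.21, 4.15 and 4.27 and overlapped phenformin. The probes of *NEAT1* disagreed: the value above is that of the brightest one, and the mean of the gene's probes gave a difference of 1e-04. *NEURL1*, a ubiquitin ligase, read 2.95, 2.90 and 2.82 with metformin and 2.24, 2.55 and 2.37 with phenformin, a difference of −0.50 ± 0.09 (SE; adjusted p = 0.531). The calcium channel gene *TRPC6* differed by −0.42 ± 0.07 (SE; adjusted p = 0.531), with metformin at 2.62, 2.54 and 2.28 and phenformin at 2.13, 2.25 and 1.80. Quantile normalization gave 0.42 for *UCN2*, 0.43 for *NEAT1*, −0.52 for *NEURL1* and −0.44 for *TRPC6*.

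**Figure D4:**
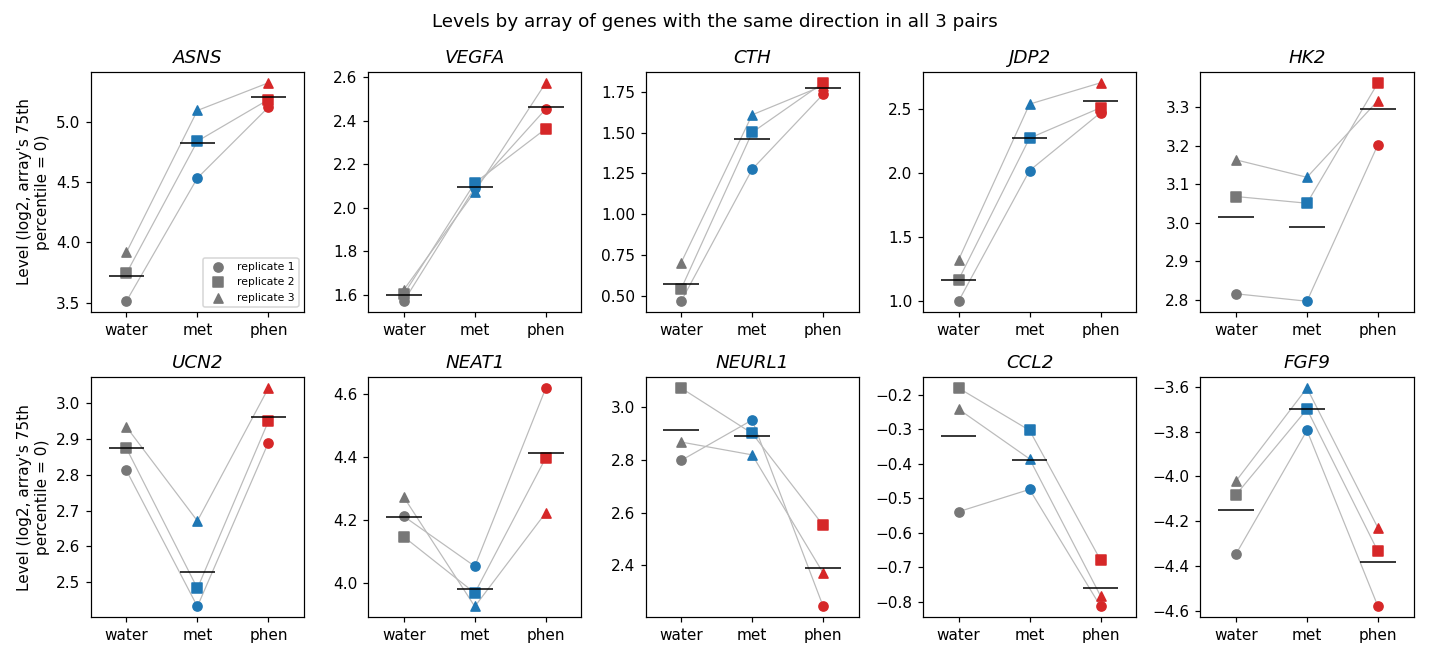
Levels (log2, 0 at the 75th percentile of each array) of 10 genes on the 9 arrays, with points marked by replicate number, lines joining the same number and bars for the mean of each group. In *ASNS*, *VEGFA* and *CTH* both drugs lay above water and phenformin above metformin; *UCN2* and *NEAT1* (brightest probe) were lowest with metformin.

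Growth and cytokine genes differed by small amounts. *MYC* differed by 0.30 (pairs 0.45, 0.20 and 0.24) and the immediate early gene *EGR1* by 0.18 (0.21, 0.23 and 0.10), each higher in all 3 pairs. Their lists of 24 immediate early genes and 18 genes of ERK output had medians of 0.04 and 0.08. In all 3 pairs 2 of the immediate early genes were higher and 3 lower, and 7 of the ERK output genes were higher and 3 lower. The urokinase gene *PLAU* read −0.12, −0.04 and −0.10 with metformin and 0.13, 0.31 and 0.21 with phenformin (difference 0.31 ± 0.08, SE; adjusted p = 0.548). The monocyte chemokine *CCL2* read −0.47, −0.30 and −0.39 with metformin and −0.81, −0.68 and −0.78 with phenformin, with 3 close pairs (−0.34, −0.38 and −0.40) and a difference of −0.37 ± 0.08 (SE; adjusted p = 0.531). *TNF*, at levels under −2.8, differed by −0.51 with pairs of −0.78, −0.15 and −0.59. Of 23 cytokines and chemokines 4 were higher and 5 lower in all 3 pairs. Over all features 12.5% were higher and 17.5% lower in all 3 pairs (17% and 11.8% of those with a mean level over 0).

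Among named genes measured on all 6 arrays, the differences past 1.5-fold that repeated in all 3 pairs were toward lower levels with phenformin, and those with the lowest unadjusted p were on dim probes. Of such genes, flagged above background on each biguanide array, 156 were lower with phenformin by 1.5-fold or more in the fit and lower in each pair, and 0 were higher. The same skew held over all 24355 features of the main fit with that flag, named or not. By 1.5-fold 949 of them were lower and 5 higher, and in all 3 pairs 4036 were lower and 3216 higher. Among the 10 of the 156 genes with the lowest unadjusted p were *FGF9*, *AIRE*, *ELFN2*, *LINC00629*, *P3H2*, *SH2D1B*, *BRINP3-DT*, *NAPSA* and *NTNG1*. The differences of these 9 ranged from −0.59 (*NAPSA*) to −0.91 (*ELFN2*). *FGF9*, a fibroblast growth factor, read −3.79, −3.70 and −3.61 with metformin, −4.58, −4.33 and −4.23 with phenformin and −4.35, −4.08 and −4.02 with water. The drug groups did not overlap and the difference was −0.68 ± 0.07 (SE; adjusted p = 0.472), which *UCN2* shared, with pairs of −0.78, −0.63 and −0.62. The difference of *FGF9* was −0.21 after quantile normalization and −0.18 after normexp background correction. *AIRE*, the thymic regulator of self antigens, and *SH2D1B*, an adaptor of natural killer cells, are genes that melanoma cells are not known to use, and they differed by −0.65 and −0.69.

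Of the lists of markers of other cells, some were low in pair 1 and some were not. The 6 tested T cell markers had a median of −0.40, with −1.11 in pair 1, −0.25 in pair 2 and −0.08 in pair 3, and the 16 tested tissue-restricted genes had −0.38, with −0.99, −0.30 and 0.07. The 3 tested myeloid markers had −0.27 (−0.26 in pair 1), the 7 endothelial markers −0.05 (−0.19 in pair 1) and the 3 keratinocyte markers −0.04 (0.08 in pair 1). *CD8B* read −1.87, −3.48 and −4.30 with metformin and −4.11, −4.00 and −4.72 with phenformin, and the mast cell protease *CMA1* read −0.79, −2.88 and −4.64 against −3.77, −4.15 and −4.30. Water replicate 1 read −2.27 for *CD8B* and −1.79 for *CMA1*. In both genes replicate 1 of metformin and of water were the highest of the 9 arrays. *CD4* was bright, at 5.48, 4.54 and 4.12 with metformin and 4.16, 4.10 and 4.13 with phenformin. In RNA of whole cultures fewer cells that express a gene and less RNA per cell cannot be told apart. The part of the array-wide shift of metformin and water replicate 1 in these values was not tested.

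Brightness did not mark all of the pair 1 differences. Of 10866 features with a mean level over 0, 254 were lower with phenformin by 1 or more in pair 1 and 0 were higher. Their median level was 3.43, all 254 were also under 0 in pair 2 (median −0.43), and 64 were under 0 in pair 3 (median 0.07). *FOXP4*, a forkhead factor, read 9.25, 6.96 and 6.84 with metformin, 6.65, 6.57 and 6.74 with phenformin and 8.85, 6.82 and 6.81 with water. *NKX2-5*, a cardiac homeobox factor, read 9.39, 7.61 and 7.12 with metformin, 7.23, 7.18 and 7.09 with phenformin and 9.12, 7.35 and 7.10 with water. *LINC01356* followed the same order, from 9.56 on metformin replicate 1 to 7.65 on metformin replicate 3. Replicate 1 of metformin and of water stood apart in all 3, which were chosen after their values were seen.

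On the opposite side, the largest differences of pair 1 among named features not above background on metformin replicate 1 were *FAM167A* (1.18), *WEE2-AS1* (1.18), *SPATA22* (1.17), *PRR14L* (1.11) and *C1QTNF9B* (1.05). In the fit over 3 pairs they were 0.52, 0.18, −0.07, 0.76 and 0.70. *PRR14L* was above background on no metformin array and on all 3 phenformin arrays, and it passed the filter through phenformin alone, so that its direction was fixed by the choice. Its bound, with phenformin at least 1.5-fold higher, is a description. In this bound the mean of the phenformin arrays is set against, on each metformin array, the dimmest probe called above background or the probe's own signal if brighter. In all, 5 features were above background on no metformin array and 56 on no phenformin array, and each passed the filter through the drug with the brighter signal.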

How the data were processed

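Gene expression was measured with single-dye Agilent arrays. The authors extracted spot intensities with Agilent Feature Extraction (version 9.1 per the submitters' processing notes), which subtracts background and removes spatial trends but does not normalize between arrays. A deposited table of log2 values, which follow these signals with a near-constant offset on each array and have a floor of 4, served as an alternative. Here, control spots were left out, outlier spots were set to missing and repeated spots were averaged by probe. Levels are log2 intensities relative to the 75th percentile of their array. Of 33080 probes with a RefSeq accession, 31104 were matched to a current symbol. Each gene was represented by its brightest probe that was flagged well above background on all 3 metformin or all 3 phenformin arrays. The 9 water, metformin and phenformin arrays were fitted with limma 3.58.1 in R 4.3.3, with groups and replicate number as terms, two-sided, with Benjamini-Hochberg adjustment. The paired test of the study's methods gave the block and the 1.5-fold threshold (0.585 on the log2 scale). Deviations from group means correlated by 0.24 to 0.86 between arrays of the same number and by −0.80 to 0.09 between other arrays. Deviations within a group cancel out, which pulls the correlations between other numbers down. These values cannot tell a pairing of cultures from a shift that arrays share. The numbers were taken to pair the arrays because the methods' test is paired. On simulated data with independent noise the fit returned the planted differences on average. Such noise lacks the shifts of single arrays seen here, so that check does not show how many real differences would be missed. Single values of 57 features were missing.

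Genes and lists were chosen with earlier results of these data known. The text names uncalled genes above background on all 6 biguanide arrays with the same sign in all pairs and a 1.5-fold difference by unadjusted p (10 at most in each direction), 13 genes of the stress and glucose response, up to 4 members of each list with the largest difference, 5 genes dim on metformin replicate 1 and cell line markers. Some genes that the rule names are not reported here. Alternatives were no block, slide as a fixed or random term, 6 or 15 arrays, array weights, normexp background correction of the median spot signal (offset 50), other scalings, quantile normalization, the deposited table, other filters, the mean of a gene's probes, the methods' paired t-test and each array or replicate left out. The limit to features with a mean level over 0 was added after seeing the data. The 3 arrays per group limit the precision. Figures were drawn with matplotlib 3.10.9.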

Additional observations from a re-analysis of the deposited data

How the results depend on the processing

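The count of 0 genes called between the drugs held under all alternatives with an adjusted p, and the smallest adjusted p over them lay between 0.0538 (without phenformin replicate 2) and 1. The methods' paired t-test at an unadjusted p counted 120 genes, and 38 among probes above background on all 6 biguanide arrays. Without the replicate block, and so without the pairing, 0 genes were called and 552 had an unadjusted p of 0.05 or less, against 2259 with it. The 591 features lower by 1.5-fold before adjustment became 178 without the block, 196 with normexp, 313 in the deposited table and 2554 with no filter on dim probes. The 2884 features lower by 1 or more in pair 1 became 347 with normexp background correction, 1199 with quantile normalization, 16695 with no filter on dim probes, 1786 over probes above background on all 9 arrays and 254 over features with a mean level over 0; the last 3 differ in the features counted. The median of the ATF4 list kept its sign, between 0.07 and 0.15. Of 62 named genes, 55 kept their sign under every alternative that gave a value. The other 7 had differences that crossed 0 when arrays were left out, and their ranges then were *DDIT3* −0.14 to 0.031, *NUPR1* −0.018 to 0.18, *INHBE* −0.086 to 0.33, *ARRDC4* −0.079 to 0.11, *WEE2-AS1* −0.39 to 0.79, *SPATA22* −0.70 to 0.43 and *ULBP1* −0.28 to 0.0016. *INHBE* was −0.027 and *WEE2-AS1* −0.015 with normexp background correction. *WEE2-AS1* was −0.12 in the deposited table and −0.49 with no filter. Quantile normalization gave 0.47 for *SPATA22* and 0.15 for *ULBP1*. The causes were not tested.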
